A study of Mus musculus with 10 samples.

Results

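Transcripts of 9 enzymes of cholesterol synthesis, Hmgcs1, Mvd, Idi1, Fdps, Fdft1, Sqle, Lss, Cyp51 and Msmo1, were followed across 5 tissues and 2 diets in aged mice. They were taken as all probe sets that carry exactly 1 of these symbols, which gave 24 probe sets for 9 of the 18193 genes on the arrays. The yogurt groups were male ICR mice, an outbred stock, aged 28 months, that had eaten AIN-93, a purified diet, with LB81 yogurt at 1 to 2% of the diet since 8 months of age, and the control groups were mice of the same sex, stock and age on AIN-93 alone. Jejunum, ileum, distal colon, liver and spleen RNA was pooled over 10 yogurt-fed or 9 control mice, so that each diet had 1 array per tissue and no spread between mice could be measured. All animals were old males housed singly, and no younger or female animals were compared.

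Cholesterol is built from acetyl-CoA through mevalonate, isoprenoid units, squalene and lanosterol. When membranes of the endoplasmic reticulum hold little sterol, the transcription factor SREBP-2 is carried by its escort Scap to the Golgi and cleaved there. The freed part enters the nucleus and raises transcription of nearly the whole pathway, so its genes are known to move together. Liver and intestine are major sites of cholesterol synthesis in rodents, and dietary or bile-borne sterol is known to lower it.

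The promoters are shown because SREBP-2 works through short elements near the start site together with the factor NF-Y, which binds CCAAT. RefSeq promoter windows of mouse build GRCm38.p6, 250 bases before to 50 after the start site, were matched for 6 of the 9 genes (Hmgcs1, Mvd, Idi1, Lss, Cyp51 and Msmo1). Capitals mark TCACNCCA, a core of the sterol regulatory element, and ATTGG or its reverse complement CCAAT, each searched on both strands. The following 4 genes were chosen as 2 with and 2 without a TCACNCCA match.
Hmgcs1 (chr13:119690101-119690400, plus strand): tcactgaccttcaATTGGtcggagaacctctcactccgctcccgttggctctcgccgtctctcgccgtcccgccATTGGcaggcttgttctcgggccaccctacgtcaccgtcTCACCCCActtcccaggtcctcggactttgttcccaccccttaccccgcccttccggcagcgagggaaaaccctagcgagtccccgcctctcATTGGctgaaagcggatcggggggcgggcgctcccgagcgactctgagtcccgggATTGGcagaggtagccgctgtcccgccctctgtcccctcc
Msmo1 (chr8:64733529-64733828, minus strand): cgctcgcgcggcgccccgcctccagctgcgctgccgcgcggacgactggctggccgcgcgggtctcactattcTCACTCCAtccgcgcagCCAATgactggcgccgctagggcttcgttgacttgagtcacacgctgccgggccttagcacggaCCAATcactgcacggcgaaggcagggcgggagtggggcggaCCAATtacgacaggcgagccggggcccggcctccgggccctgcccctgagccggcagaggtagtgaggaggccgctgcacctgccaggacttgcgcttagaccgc
Idi1 (chr13:8885356-8885655, plus strand): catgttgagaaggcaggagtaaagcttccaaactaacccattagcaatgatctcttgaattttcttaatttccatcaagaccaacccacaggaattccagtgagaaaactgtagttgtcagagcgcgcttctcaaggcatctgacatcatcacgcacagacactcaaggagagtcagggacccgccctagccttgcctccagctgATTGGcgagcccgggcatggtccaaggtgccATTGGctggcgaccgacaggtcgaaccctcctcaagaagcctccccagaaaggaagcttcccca
Cyp51 (chr5:4104648-4104947, minus strand): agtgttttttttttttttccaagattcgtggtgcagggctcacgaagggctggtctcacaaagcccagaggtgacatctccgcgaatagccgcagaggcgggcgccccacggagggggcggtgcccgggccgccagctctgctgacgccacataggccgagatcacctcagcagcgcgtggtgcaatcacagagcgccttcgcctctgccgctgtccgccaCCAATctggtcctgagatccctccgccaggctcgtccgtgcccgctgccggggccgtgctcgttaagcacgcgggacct
ATTGG or CCAAT was found in 6 of the 6 windows, against 37.4% of all 32851 windows, and TCACNCCA in 2 of the 6, against 4.36%. In Hmgcs1 the TCACNCCA match begins at -137 and lies among 4 ATTGG matches, which begin at -237, -176, -45 and 11, and in Msmo1 it begins at -177 with CCAAT at -160, -96 and -55. The GC box GGGCGG, searched on both strands, was also in 6 of 6 windows, against 35.7% of all. These are matches of letters only.

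By summed antilogged signal, the marker lists of liver, spleen, ileum and distal colon were each highest in the tissue of that label. All 7 hepatocyte genes were above the floor, the array's 50th percentile (5.42 to 5.50 in log2 units), on both liver arrays, 4 B cell genes on both spleen arrays, 3 ileal genes on both ileum arrays and 4 colon position genes on both colon arrays. The floor alone does not set a tissue apart: the 4 B cell genes were also above it on the jejunum, distal colon and liver arrays. On the yogurt and control arrays the B cell genes summed to 10950.4 and 11026.5 in spleen, against 1032 and 1113 in distal colon. The hepatocyte genes summed to 20544 and 21512 in ileum, against 98823 and 99118 in liver. The jejunum list had 11512 and 13371 in jejunum, and 13167 and 12727 in liver. In jejunum the yogurt array exceeded the control array for 7 of 7 exocrine pancreas genes (median log2 ratio 1.68). The 3′ probe set of actin exceeded its 5′ probe set, a sign of RNA quality, by 1.82 and 2.01 log2 units on the yogurt and control liver arrays, against 0.66 to 1.09 on the others. Arrays of 1 tissue had Spearman correlations of 0.992 to 0.994 over all probe sets.

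Of the 24 probe sets, 15 lay above the floor on all 10 arrays, 6 on some and 3 on none. Each gene was represented by its probe set with the highest mean, and these lay above the floor on all 10 arrays for all 9 genes. Probe sets of 1 gene share a transcript and are not independent measurements.

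The 9 enzymes shared their lowest tissue and divided over the highest. By the probe set used for each gene, spleen had the lowest level of all 9. Ileum had the highest of 5 (Hmgcs1, Mvd, Sqle, Cyp51 and Msmo1) and liver the highest of 4 (Idi1, Fdps, Fdft1 and Lss). For Fdft1 a second probe set, also above the floor on all 10 arrays, put ileum above liver. In the early pathway, Hmgcs1, the cytosolic synthase that makes HMG-CoA, had log2 values on the yogurt and control arrays of 11.47 and 11.44 in jejunum, 12.31 and 12.40 in ileum, 11.51 and 11.63 in distal colon, 11.78 and 12.18 in liver, and 9.43 and 9.71 in spleen. Its levels in jejunum and distal colon did not differ beyond their spread (limma log2 difference -0.12 ± 0.09 SE, adjusted p = 0.311), whereas ileum was above liver (0.37 ± 0.09, adjusted p = 0.00771).
Mvd, the decarboxylase that yields isopentenyl diphosphate, had 7.01 and 7.13 in jejunum, 8.09 and 8.37 in ileum, 7.34 and 7.46 in distal colon, 6.99 and 7.34 in liver, and 5.93 and 5.82 in spleen. It departed from the other enzymes in liver, where its arrays overlapped those of jejunum (jejunum minus liver -0.10 ± 0.11, adjusted p = 0.492).

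At the isoprenoid steps liver led by the probe sets used. Idi1, the isomerase of isopentenyl diphosphate, had 10.24 and 10.18 in jejunum, 10.69 and 10.83 in ileum, 9.98 and 10.06 in distal colon, 10.79 and 11.19 in liver, and 8.72 and 8.79 in spleen, with ileum and liver overlapping (-0.23 ± 0.10, adjusted p = 0.0646). Fdps, which makes farnesyl diphosphate, had 9.02 and 9.07 in jejunum, 9.98 and 10.06 in ileum, 9.11 and 9.22 in distal colon, 10.54 and 10.59 in liver, and 7.49 and 7.68 in spleen. It had the widest lead of liver over ileum among the 9 (ileum minus liver -0.54 ± 0.06, adjusted p = 4.69e-05). Fdft1, the squalene synthase at the branch into sterols, had 9.41 and 9.52 in jejunum, 10.57 and 10.86 in ileum, 10.33 and 10.54 in distal colon, 10.77 and 11.08 in liver, and 8.41 and 8.56 in spleen. Fdft1 was also much lower in jejunum than in distal colon (-0.98 ± 0.06, adjusted p = 7.87e-06), and its second bright probe set had log2 values of 8.95 and 9.04 in jejunum and 9.08 and 9.35 in distal colon, a much smaller gap. That second set had 10.105 and 10.219 in ileum and 9.474 and 9.909 in liver, so that ileum and not liver was highest.

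Past squalene, the ileum and liver again stood above the rest. Sqle, the squalene epoxidase that is a slow step of the pathway, had 9.31 and 9.28 in jejunum, 10.55 and 10.65 in ileum, 9.50 and 9.60 in distal colon, 9.89 and 10.45 in liver, and 7.48 and 7.69 in spleen. Cyp51, the lanosterol demethylase, had 8.88 and 8.70 in jejunum, 10.01 and 10.11 in ileum, 8.63 and 8.59 in distal colon, 9.66 and 9.83 in liver, and 6.59 and 6.92 in spleen. Msmo1, the methylsterol mono-oxygenase of the next steps, had 10.01 and 9.99 in jejunum, 11.17 and 11.23 in ileum, 10.02 and 10.13 in distal colon, 10.69 and 11.30 in liver, and 7.26 and 7.77 in spleen. The liver arrays of Msmo1 enclosed those of ileum, and the levels did not differ beyond their spread (0.20 ± 0.15, adjusted p = 0.274). Lss, the cyclase that forms lanosterol, had 7.70 and 7.76 in jejunum, 8.38 and 8.61 in ileum, 7.43 and 7.58 in distal colon, 8.69 and 8.96 in liver, and 6.58 and 6.71 in spleen. Of the 36 pairs of neighbours in these orders, 10 had an adjusted p of 0.05 or more, and 6 of those paired jejunum with distal colon.

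**Figure D1:**
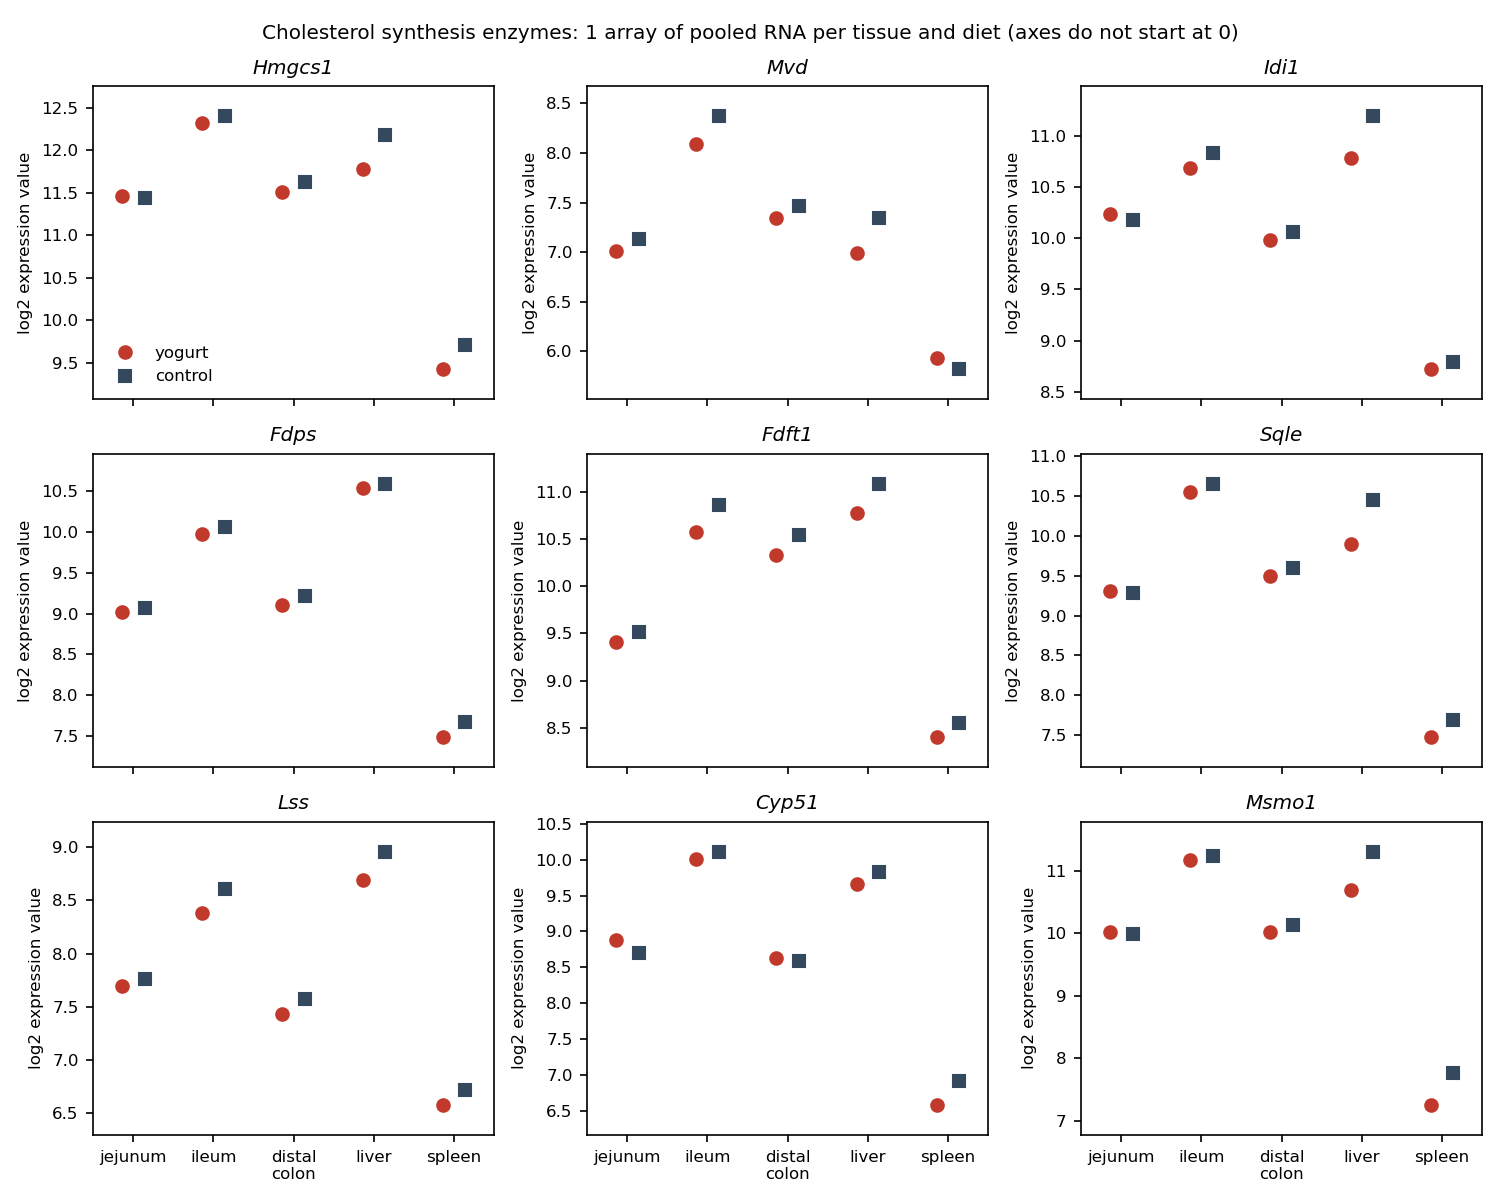
Log2 expression values of each enzyme (y axis) by tissue (x axis), with 1 point for the yogurt array and 1 for the control array of each tissue. The spleen points are the lowest in every panel, and in liver the yogurt point lies below the control point in all 9 panels.

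Differences between tissues were tested with limma over 13598 genes on all 10 arrays, with tissue and diet in the fit and 4 residual degrees of freedom. A gene was called at a Benjamini-Hochberg adjusted p under 0.05 and a difference of at least 2-fold. The 2 arrays of a tissue are pools from different diets, and all tissues came from the same mice, so these p-values measure how much the diet ratio varied over tissues and not the spread between mice. Against spleen, 8 of 9 enzymes were called higher in jejunum (background 16.5% of genes), 9 in ileum (17.1%), 8 in distal colon (18.5%) and 9 in liver (16.3%). Msmo1 had the widest span, 3.68 ± 0.15 log2 units for ileum minus spleen (adjusted p = 1.99e-07) and 3.48 ± 0.15 for liver minus spleen (adjusted p = 2.13e-07). Mvd had the narrowest for liver minus spleen, 1.29 ± 0.11 (adjusted p = 1.57e-05). Its spleen values lie near the floor: with the floor at the 65th percentile, Mvd was at 0.62 for liver minus spleen, 0.86 for distal colon minus spleen and 0.53 for jejunum minus spleen, and lost these 3 calls. In bulk tissue, fewer cells that express a gene and less RNA per cell cannot be told apart.

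Within the gut the ileum stood above both neighbours. All 9 enzymes were lower in jejunum than in ileum with an adjusted p under 0.05, by log2 differences from -1.31 ± 0.12 for Sqle (adjusted p = 0.000177) to -0.55 ± 0.10 for Idi1 (adjusted p = 0.00369). Of these, 5 passed 2-fold as well (Mvd, Fdft1, Sqle, Cyp51 and Msmo1), against 2.68% of genes called lower. Passing on p alone was common: 6227 of all 13598 genes had an unadjusted p under 0.05 for this pair, in either direction. All 9 enzymes were also higher in ileum than in distal colon with an adjusted p under 0.05. Of these, 3 passed 2-fold (Cyp51 at 1.45 ± 0.11, Msmo1 at 1.12 ± 0.15 and Sqle at 1.05 ± 0.12), against 3.99%. For ileum minus distal colon, 8083 of all 13598 genes had an unadjusted p under 0.05, in either direction. By the probe sets used, Fdft1 differed least there, at 0.27 ± 0.06 (adjusted p = 0.00659). Its second bright probe set had a wider gap, with 10.105 and 10.219 on the yogurt and control ileum arrays and 9.08 and 9.35 in distal colon. A fainter probe set of Lss went the other way, with 6.88 and 7.39 in ileum and 7.26 and 7.57 in distal colon.
The summed antilogged signal of 7 gut epithelial markers was 39439 and 40732 on the yogurt and control ileum arrays, 30206 and 30744 in jejunum, and 29363 and 28043 in distal colon, and its part in these differences was not tested. Between jejunum and distal colon no enzyme was called (background 7.66% lower and 4.52% higher). At an adjusted p under 0.05 alone there were 3, of which Fdft1 is given above, Mvd was at -0.33 ± 0.11 and Lss at 0.22 ± 0.08, the last turning to -0.0833 when probe sets were averaged. At an unadjusted p under 0.05 there were also 3 of the 9 enzymes, against 8658 of all 13598 genes in either direction.

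Liver and ileum divided the enzymes. For ileum minus liver, Mvd was called higher (1.06 ± 0.11, adjusted p = 6.32e-05), against 15.8% of genes called higher and 11.6% lower. With smaller differences at an adjusted p under 0.05, Hmgcs1, Sqle and Cyp51 were higher in ileum, by 0.37, 0.43 and 0.31, while Fdps, Fdft1 and Lss were lower, at -0.54, -0.21 and -0.33. For this pair 10008 of all 13598 genes had an unadjusted p under 0.05, in either direction. Averaging the probe sets of Cyp51 moved its difference to -0.0011, and its 2 fainter probe sets had higher values in liver than in ileum. By its second bright probe set Fdft1 was instead higher in ileum than in liver. Jejunum and distal colon were each called lower than liver for 3 enzymes, against 11.2% and 10.2% of genes. Fdps (-1.52 and -1.40) and Lss (-1.10 and -1.32) were common to both, with Fdft1 (-1.46) in jejunum and Cyp51 (-1.13) in distal colon. With each array centred on its median, a scaling tried after seeing the data, 6 enzymes were called lower in jejunum than in liver and 5 in distal colon, and none was called higher in ileum than in liver. Set against the mean of the other 4 tissues, liver was higher for 6 enzymes (background 11.2%), led by Fdps at 1.61 ± 0.04 (adjusted p = 1.57e-08), but not for Mvd (0.02 ± 0.09, adjusted p = 0.836).

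**Figure D2:**
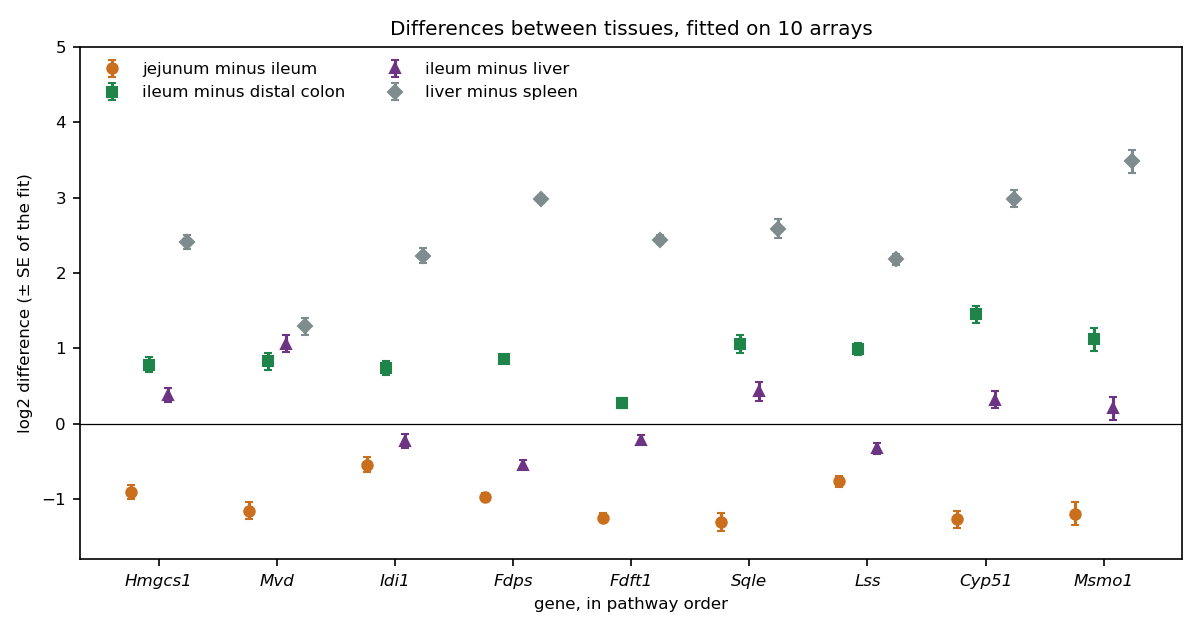
Log2 differences between pairs of tissues (y axis, ± SE of the fit) for the 9 enzymes in pathway order (x axis). All jejunum minus ileum points lie below 0 and all ileum minus distal colon points above it, while ileum minus liver runs from -0.54 for Fdps to 1.06 for Mvd.

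In the liver of yogurt-fed mice all 9 enzymes had a lower value than in the control liver. Their log2 ratios of yogurt over control had a median of -0.35, against -0.026 over the 12160 genes measured there (a gene counted as measured where at least 1 array of the tissue lay above the floor). A mark was set at 0.32 log2 units because the enzymes differ by small amounts, so it was not independent of their values. Lower by at least that much were 5 enzymes (Hmgcs1, Mvd, Idi1, Sqle and Msmo1), where 3% of all measured genes were. Of the 7152 bright genes (those over the 75th percentile of probe sets on either array of the tissue) 2.64% were. Msmo1 was 1.52-fold lower (log2 10.69 in the yogurt liver and 11.30 in the control liver), and only 0.296% of genes had a lower ratio. Sqle was 1.47-fold lower (9.89 and 10.45), and Idi1 and Hmgcs1 were each 1.32-fold lower. Mvd was 1.28-fold lower (6.99 and 7.34). Just short of the mark stood Fdft1 at -0.31 and Lss at -0.26, followed by Cyp51 at -0.16. Fdps hardly differed, at 10.54 in the yogurt liver and 10.59 in the control liver (-0.05). With 1 array per diet these ratios have no replicate check and carry no p-value.

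The bright probe sets of a gene gave the same sign in liver. All 15 that lay above the floor on all arrays had a lower value in the yogurt liver, with a median of -0.31, a range from -0.60 to -0.05, and 7 past the mark. Which genes passed the mark depended on the probe set. The 4 bright probe sets of Hmgcs1 were at -0.40, -0.28, -0.24 and -0.23, so that only the set used passed it. The set used for Mvd was at -0.35 and its second set at -0.31, short of the mark. The pair of Idi1 was at -0.45 and -0.40. The second set of Fdft1 passed the mark at -0.44, while the set used was at -0.31. Cyp51 was the least certain: the probe set used gave -0.16, and another, above the floor on 8 arrays including both of liver, gave -0.68 (7.41 in the yogurt liver and 8.09 in the control liver). Among the fainter sets, one of Lss had a value of 5.98 in the yogurt liver and 5.90 in the control liver.

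**Figure D3:**
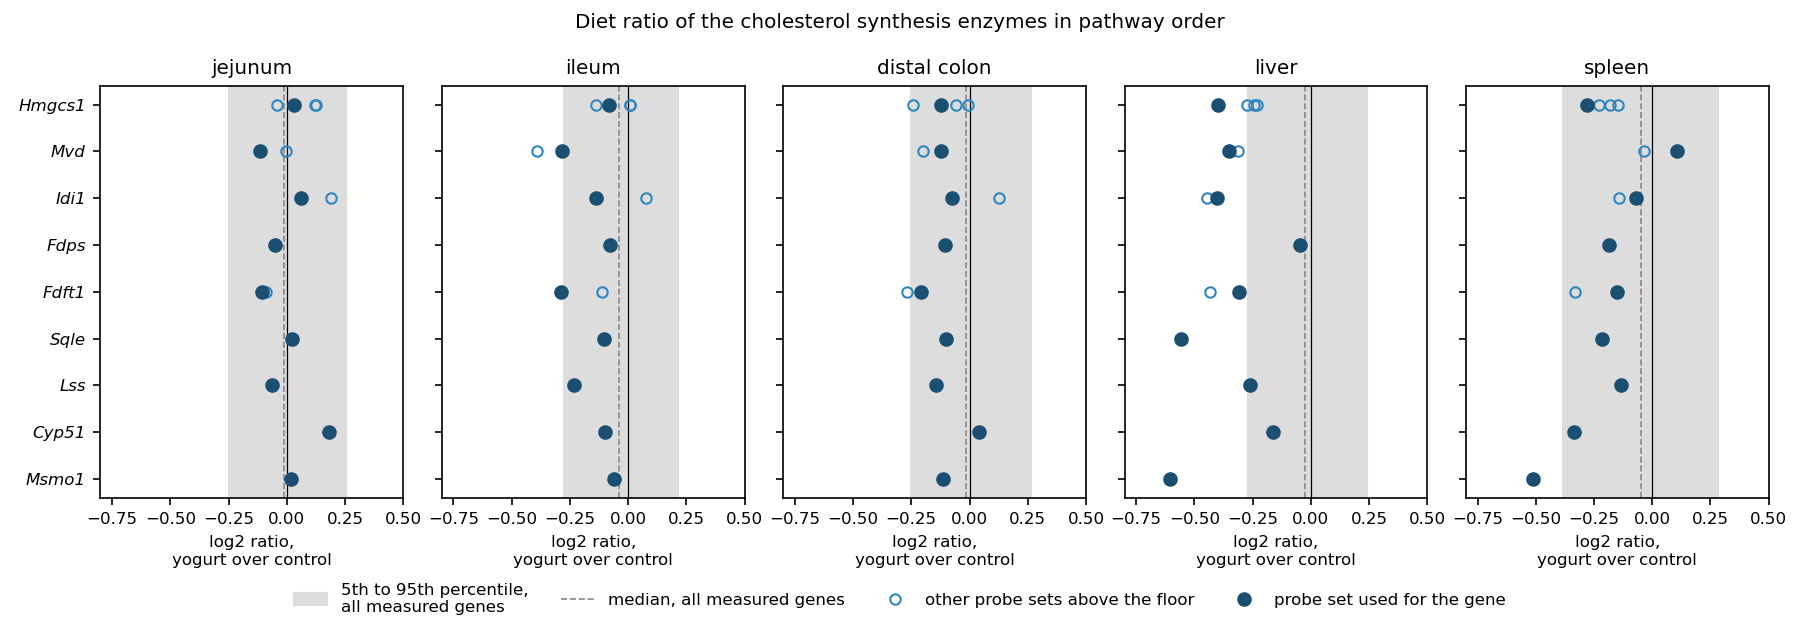
Log2 ratio of yogurt over control (x axis) for the enzymes in pathway order (y axis), 1 panel per tissue, with filled points for the probe set used and open points for others above the floor on all arrays. Grey bands span the 5th to 95th percentile of all measured genes, and in liver 6 of the 9 filled points lie left of the band.

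In spleen 8 of 9 enzymes had a lower value in the yogurt pool, with a median ratio of -0.19 against -0.049 over all 11874 measured genes. Past the mark were 2, Msmo1 (7.26 in the yogurt spleen and 7.77 in the control spleen, 1.43-fold) and Cyp51 (6.59 and 6.92, 1.26-fold). The background was much wider here than in liver, with 8.08% of all measured genes and 6.72% of the 7189 bright ones past it. Msmo1 was the one left past the mark once ratios were centred on the median of all genes. Mvd went the other way, at 5.93 in the yogurt spleen and 5.82 in the control spleen, while its second probe set gave 5.61 and 5.64. The log2 3′ over 5′ ratio of Gapdh was 1.29 on the yogurt spleen array and 1.01 on the control one, and its part in these ratios was not tested.

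In the gut the ratios were small. All 9 enzymes had a lower value in the yogurt ileum, where 62.1% of all measured genes were also below 0, with a median of -0.10 against -0.040, and none passed the mark (background 3.12%). Fdft1 (10.57 in the yogurt ileum and 10.86 in the control ileum) and Mvd (8.09 and 8.37) came closest at -0.29 and -0.28, and a fainter probe set of Lss gave -0.51. The probe sets of a gene did not all share the sign in ileum: of the 15 above the floor on all arrays 12 were lower and 3 higher, the second set of Mvd passed the mark at -0.39, and that of Idi1 was at 0.08. On the same ileum arrays 3 of 4 measured adipocyte genes were higher by more than the mark in the yogurt sample (median 0.75) and 7 of 7 smooth muscle genes were above 0 (median 0.17), and their part in the enzyme ratios was not tested. In distal colon 8 of 9 were below 0, against 54.6% of genes, with a median of -0.11 and the lowest ratio in Fdft1 (10.33 in the yogurt colon and 10.54 in the control colon, -0.21). None passed the mark there (background 2.08%). Of the 15 probe sets 13 were lower and 2 higher, among them the second set of Idi1 at 0.13. On the same arrays the yogurt colon exceeded the control colon for 9 of 9 cell cycle genes (median log2 ratio 0.37) and lay below it for 7 of 7 smooth muscle genes (median -0.23), while 3 of 3 measured adipocyte genes were higher by more than the mark (median 0.73), and their part in the enzyme ratios was not tested. In jejunum 4 were below 0 and 5 above it, against 53.5% of genes below 0, with ratios from -0.12 for Mvd to 0.18 for Cyp51 (8.88 in the yogurt jejunum and 8.70 in the control jejunum), and none passed the mark (background 2.44%). Of the 15 probe sets 7 were lower and 8 higher in jejunum, and 14 were lower and 1 higher in spleen. In liver and spleen the shares of genes below 0 were 57.8% and 61.5%.

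Over the 5 tissues, 38 of the 45 ratios of the 9 enzymes lay below 0, none reached 2-fold and 1 reached 1.5-fold. Fdps, Fdft1 and Lss were below 0 in all 5 tissues. Fdps varied least, from -0.19 in spleen to -0.05 in liver and jejunum, while Msmo1 and Sqle ranged from -0.60 and -0.56 in liver to 0.02 in jejunum. A diet term common to the 5 tissues, from the same limma fit, was negative for all 9, from -0.25 ± 0.10 for Msmo1 (adjusted p = 0.439) and -0.21 ± 0.04 for Fdft1 (adjusted p = 0.248) to -0.08 ± 0.07 for Cyp51 (adjusted p = 0.718). None passed the test, nor did any gene of the whole table (0% called). At an unadjusted p under 0.05 there were 6 of the 9 enzymes, against 10.6% of all genes (1445 of 13598). Leaving out tissues, there were 7 enzymes without jejunum (1166 of all 13598 genes), 3 without liver (1227) and 3 without spleen (1370). There were 4 without ileum (874), 4 without distal colon (1367), and 1 without liver and spleen (1544), the last close to the share of all genes. This term takes tissues of the same mice as if they were replicates of the diet, so it describes a shift shared by tissues and no spread between animals. Over the 3 gut segments alone 8 of 9 terms stayed negative, with a median of -0.060 against -0.013 for all genes, and Cyp51 turned to 0.04.

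The rest of the pathway lay near the median of all genes in liver. Of 12 other enzymes listed, 9 were matched to a probe set, and their liver ratios had a median of -0.033 with 5 of 9 below 0. Hsd17b7, a reductase of the late sterol steps, was the 1 past the mark, at 10.14 in the yogurt liver and 10.58 in the control liver (-0.44). Mvk, the mevalonate kinase, came next with 7.73 in the yogurt liver and 8.04 in the control liver, just short of it, whereas Sc5d, the desaturase near the end of the pathway, was at 0.16, Pmvk at 0.06, Ebp at 0.03 and Lbr, a reductase that also anchors chromatin, at 0.03. Hsd17b7 and Dhcr7, the final reductase, lay below 0 in all 5 tissues, and Hsd17b7 had a limma diet term of -0.26 ± 0.05 (adjusted p = 0.269). In spleen 7 of 9 were below 0 (median -0.13), in ileum 8 of 9 (median -0.12), in distal colon 6 of 9 (median -0.010) and in jejunum 4 of 9 (median 0.0031).

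Genes that sense or move sterol were close to the background in liver. The 7 genes of the SREBP machinery had a liver median of -0.021, with none past the mark in either direction. Srebf2, which encodes SREBP-2, had 7.38 in the yogurt liver and 7.55 in the control liver (-0.17) and was below 0 in all 5 tissues, with its lowest ratio in ileum (8.65 in the yogurt ileum and 8.95 in the control ileum, -0.30). Insig1, the retention protein and itself a target of SREBP, was at -0.02 in liver and at -0.52 in spleen (8.16 in the yogurt spleen and 8.68 in the control spleen). Of the 6 genes of sterol uptake and transport measured in liver, 5 were below 0 (median -0.074), led by Npc1, the lysosomal cholesterol exporter (9.40 in the yogurt liver and 9.65 in the control liver, -0.26), and Stard4, a sterol carrier, at -0.22. Of 7 LXR targets and sterol exporters, 5 were below 0 in liver (median -0.11), and over all tissues the lowest ratio of the list was that of Abcg5, a subunit of the sterol exporter, at -0.44 in distal colon.

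Other liver genes differed on the same arrays and their part in the enzyme ratios was not tested. The first 3 lists below were added after the values were seen. All 5 genes of bile acid synthesis had a lower value in the yogurt liver (median -0.49). Among them Cyp7a1, which opens the classical route from cholesterol, stood at 9.01 in the yogurt liver and 9.83 in the control liver (-0.82). Fatty acid synthesis genes ran the opposite way, above 0 in 7 of 7 cases (median 0.55), with Elovl6, an elongase, at 10.92 and 9.90 on the yogurt and control arrays and Fasn, the fatty acid synthase, at 11.19 and 10.42. Of 13 measured clock genes 10 were below 0 (median -0.36), including Dbp, a clock output factor (10.32 in the yogurt liver and 11.18 in the control liver), against Arntl, the activator of the loop, at 7.68 and 7.01. Of the 9 matched cell cycle genes 5 were measured in liver, and all 5 were higher by at least the mark (median 0.48). The 95th percentile of the ratios of all measured liver genes was 0.24. Of the 9 genes, 5 lay above the floor in the yogurt liver and 4 in the control liver. Ccnb2 had 5.86 in the yogurt liver and 4.97 in the control liver, below the floor of 5.42, so its ratio was taken from the floor. Mki67 was also close to the floor, at 5.98 in the yogurt liver and 5.50 in the control liver. All 9 genes, those below the floor included, summed to an antilogged signal of 473 in the yogurt liver and 334 in the control liver. The 7 hepatocyte genes summed to 98823 in the yogurt liver and 99118 in the control liver, with ratios from -0.08 to 0.06.

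**Figure D4:**
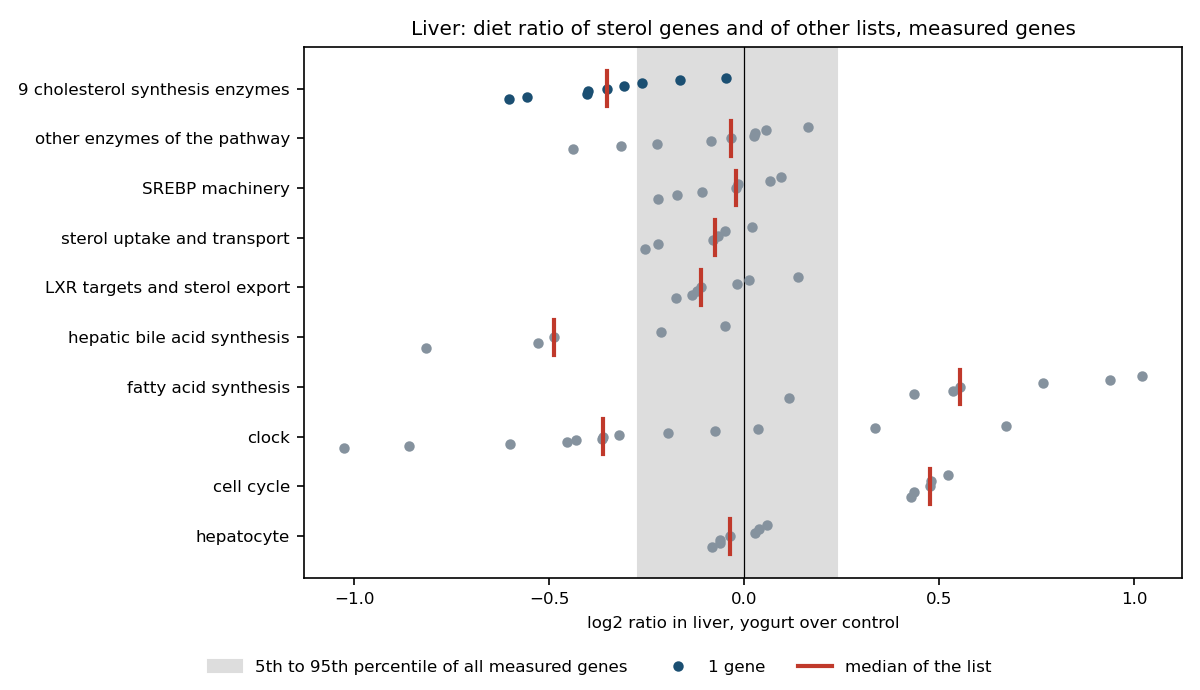
Log2 ratio of yogurt over control in liver (x axis) for genes of the pathway and of other lists (rows), with 1 point per measured gene, a red bar at the list's median and a grey band from the 5th to the 95th percentile of all measured genes. The enzymes have a median of -0.35, bile acid synthesis -0.49 and fatty acid synthesis 0.55.

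Across the 10 arrays each enzyme followed the mean of the 9, itself included, with Pearson r from 0.896 for Mvd to 0.995 for Msmo1. Of 9873 other genes above the floor on all arrays, the 8 most like that mean profile were Ctdsp1 (r = 0.989), Dgcr6, Erlin1, Acsf2, Ppcs, Slc25a20, Ell and Pkp4 (0.979). The points share tissues, and this likeness is mostly one of tissue levels: Erlin1 averaged 10.13 in ileum and 10.22 in liver against 8.68 in spleen, with a liver diet ratio of only -0.02. By the 5 diet ratios instead, r was taken without subtracting the mean ratio, so a gene lower in every tissue can score high. By this measure the enzymes ran from 0.710 for Cyp51, 0.721 for Mvd and 0.731 for Fdps to 0.977 for Hmgcs1. The closest other genes were Gapvd1 (r = 0.9975), Osbpl9, Pmm1, Ube4b, Sp1, Pgm2l1, Atp6v0b and Stard4. Pmm1, a phosphomannomutase, had ratios of -0.49 in liver and -0.32 in spleen, and Stard4 of -0.22 and -0.09.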

How the data were processed

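Log2 expression values per probe set, as the authors deposited them, were used for 45101 probe sets on 10 arrays, with values from 2.71 to 14.8. Per the labels' protocols, 100 ng of pooled RNA was amplified and hybridized to an Affymetrix mouse expression array. MAS5 and affy are named, without a role, in the submitters' processing notes. The sources used here do not state the scaling. Precision is limited by the number of arrays. Nothing further was scaled. Names came from the platform annotation, with symbols updated by gene number to RefSeq (34754 of 34958 probe sets with 1 symbol matched, none changed). The 932 with several symbols and the 64 array controls were left out. Before ratios were taken, lower values were set to a floor at the 50th percentile of the array. Tissue and diet effects were fitted with limma 3.58.1 in R 4.3.3 (lmFit, eBayes with trend) on genes above that floor on at least 2 arrays. The fit was tested on simulated data with independent noise of equal spread for all genes. Tissues shared by the same mice were not simulated, so the run only checked that set differences are estimated. Python 3.11.15 was used for the rest. Named genes are the 9 enzymes, the sterol lists, and the 8 genes most like the enzymes by each of 2 measures. Genes named from the bile acid, fatty acid and clock lists were chosen after their values were seen. Members and lists were chosen with earlier results of these data known, and no list was tested. Alternatives were other floors, a pseudocount of 16, no filter, quantile normalization, centring, averaged probe sets, eBayes without trend, no diet term, and leaving out tissues. Genes not matched are not analysed here. The fits on centred arrays and on the gut alone, and the lists of clock, bile acid and fatty acid genes, were chosen after seeing the data.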

Additional observations from a re-analysis of the deposited data

Results flagged for a closer look

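Mvd and Cyp51 had diet ratios of opposite sign in 2 tissues, each with a log2 ratio of at least 0.1 in size on both sides. Mvd had a log2 ratio of 0.11 in spleen and -0.35 in liver. Cyp51 had 0.18 in jejunum and -0.33 in spleen. With 1 array per diet in each tissue the difference between tissues was not tested for either gene. No group held enough arrays for a search for outlying samples.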

How the results depend on the processing

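The median diet ratios kept their sign under every alternative run, from -0.35 to -0.29 in liver, -0.20 to -0.10 in spleen, -0.10 to -0.06 in ileum, -0.12 to -0.05 in distal colon and 0.02 to 0.03 in jejunum. The number of enzymes lower by at least 0.32 log2 units in spleen was 1 in place of 2 with a pseudocount, centred ratios, quantile normalization or averaged probe sets, and in ileum 1 in place of 0 with averaged probe sets, which also left 5 enzymes below 0 in spleen, of 6 measured. In liver it was 4 or 5 throughout. Averaging probe sets also moved the liver ratios of Fdft1, Msmo1 and Cyp51 to -0.16, -0.41 and -0.31, that of Msmo1 in spleen to -0.36 and that of Hmgcs1 in distal colon to 0.0038. Averaging brings in probe sets below the floor. Between tissues it left 3 enzymes called lower in jejunum than in ileum and 3 called higher in liver than in the other 4 tissues, and turned jejunum minus distal colon to -0.0833 for Lss and -0.18 for Cyp51 and ileum minus liver to -0.0011 for Cyp51. With a pseudocount, quantile normalization or centred arrays 0 enzymes were called higher in ileum than in liver. Centring the arrays, tried for tissues after seeing the data, moved the median difference of all genes from 0.04 to -0.28 for distal colon minus spleen and from 0.14 to -0.13 for distal colon minus liver. It called 6 enzymes lower in jejunum and 5 in distal colon than in liver, and turned jejunum minus distal colon to 0.0159 for Hmgcs1, 0.0140 for Fdps and 0.0601 for Msmo1 and distal colon minus liver to -0.0257 for Mvd. Mvd in liver against the other tissues turned to -0.15 under the 65th percentile floor and to -0.0042 under the pseudocount. The causes were not tested. Of 891 single-gene tissue differences under alternatives, 847 kept their call and direction. The 9 diet terms had adjusted p-values from 0.161 to 0.966 over all 14 alternatives and the fit as reported, and Cyp51 turned to 0.04 in the gut segments alone, a fit chosen after seeing the data. Over all genes the diet term called 0 as reported, 6 higher and 8 lower with no filter or floor, 5 higher and 6 lower with a pseudocount, 1 lower with averaged probe sets and 2 higher with centred arrays. No gene-level call rests on depth, since the values carry no counts. With 1 array of pooled RNA per tissue and diet there were no replicates to pair. The tissue term of the reported fit sets the diets side by side within each tissue.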

Other observations

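Genes that use isoprenoids outside sterol synthesis had small ratios in most tissues. Of 7 measured, 7 were below 0 in jejunum (median -0.19) and 7 in ileum (median -0.11), against 4 in liver (median -0.010) and 3 in both distal colon and spleen. Ggps1, which makes geranylgeranyl diphosphate from the product of Fdps, had the lowest ratio, -0.625 in spleen (6.90 in the yogurt spleen and 7.52 in the control spleen). Rabggta, a subunit of the enzyme that prenylates Rab proteins, was below 0 in all 5 tissues, from -0.24 in jejunum to -0.09 in spleen. Npc1l1, the intestinal cholesterol importer, ran the other way in the small intestine, at 10.75 in the yogurt ileum and 10.51 in the control ileum, with a jejunal ratio of 0.22.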
